A study of Mus musculus with 15 samples.

Results

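The comparison described here is that of E2 with E3 at 2 h, the 3 arrays of each oestrogen that the titles of the samples place at that time, 6 of the 15 arrays in the series. All animals were ovariectomized CD-1 mice, an outbred strain whose own oestrogen source had been removed. They received an injection of saline alone (vehicle, 100 µl), or of 250 ng of E2 or 250 ng of E3 in the same volume of saline, and whole uterus was taken 2 h or 24 h later. When the vehicle uteri were collected is not stated in any source used here. The labels write only E2 and E3, which are read here by their usual meaning, estradiol and estriol. Estriol carries a further hydroxyl, on its D ring, than estradiol does. Dose, volume and time were matched, so there is 1 pair of compounds to compare, and the question was how closely their transcript profiles agreed and how large a difference the data exclude.

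Oestrogens act in the uterus mainly through the nuclear receptor ERα, which binds oestrogen response elements in DNA or joins other factors such as AP-1 at their sites. Estriol is known as a weaker and shorter-acting oestrogen than estradiol, and early responses of the rodent uterus, such as water uptake and the rapid rise of immediate early genes, are textbook features of both. Proliferation of the luminal epithelium follows many hours later and is not an event of the early time point.

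Each sample was 500 ng of total RNA labelled with Cy3 on a one-colour Agilent array. Levels are given as log2 relative signal, the log2 of the processed signal minus the 75th percentile of that array, so that 1 unit is 2-fold, and values can be compared for a probe across arrays but not between probes. At 2 h the 75th percentile ran from 1490 to 1854 intensity units and 73.51% to 80.02% of probes were well above background, the highest being E2 replicate 1. Replicates 2 and 3 of each oestrogen shared a slide and a scan day with each other, replicate 1 of each lay on another slide scanned on another day, and no slide held both E2 and E3 at 2 h. The labels do not say that the arrays of a group are separate animals, so p-values reflect only how far these samples scatter, and that scatter may be technical. All 13 epithelial, 12 stromal and 12 myometrial markers passed the filter on dim probes. So did all 13 macrophage, 17 lymphocyte and NK cell and 14 adipocyte markers, so passing the filter does not identify the tissue. In whole uterus, fewer cells of a type and less RNA per cell cannot be told apart.

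E2 and E3 gave nearly the same profile at 2 h. Across 20310 genes the group means correlated at r = 0.9965, a value across genes, which are not independent replicates and share the probe's own brightness. Correlations between an E2 array and an E3 array ran from 0.9859 to 0.9916, and those between arrays of 1 oestrogen from 0.9864 to 0.9917. The root mean square log2 distance was 0.514 ± 0.0541 (SD, 9 pairs) between an E2 and an E3 array and 0.517 ± 0.0533 (SD, 6 pairs) between arrays of 1 oestrogen. By this measure, arrays of different oestrogens were on average as close as arrays of the same one, with a difference of -0.00234. An exact two-sided permutation test over the 10 divisions of the 6 arrays gave p = 0.7, the smallest possible being 0.1. The distance from any of the 6 arrays to a vehicle array was 1.02 on average and never below 0.916. Distance also followed scan day, at 0.434 to 0.503 for pairs of 2 h arrays scanned on 1 day and 0.477 to 0.598 for other pairs. The 2 means mix such pairs in unlike shares, so the permutation test cannot separate oestrogen from layout. By the median absolute log2 difference the means were 0.209 between and 0.203 within (same permutation test, p = 0.8).

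**Figure D1:**
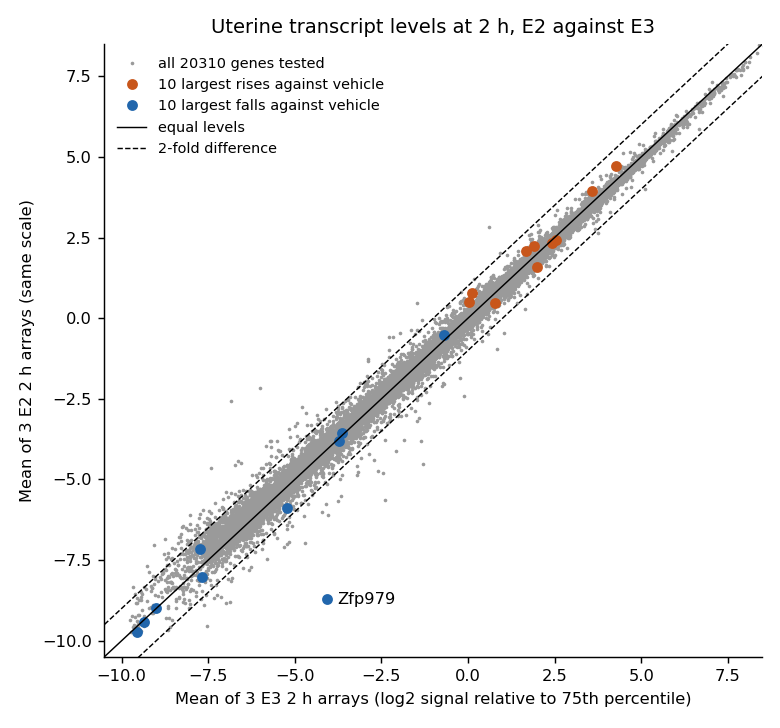
Each point is 1 gene, with its mean log2 relative signal over the 3 E3 arrays on the horizontal axis and over the 3 E2 arrays on the vertical axis, both at 2 h. The solid line marks equal levels and the dashed lines a 2-fold difference; the orange points, the 10 largest rises against vehicle, all lie between the dashed lines, and 1 of the blue points, Zfp979, lies far outside them.

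In the limma fit, 0 of 20310 genes (0%) differed between E2 and E3 at an adjusted p under 0.05, with a smallest adjusted p of 0.405 (Benjamini-Hochberg). At an unadjusted p under 0.05 there were 750 genes (3.69%), of which 440 were higher with E2 (2.17%) and 310 higher with E3 (1.53%). All 3 arrays of one oestrogen lay above all 3 of the other for 2580 genes (12.7%), with E2 above for 1200 (5.91%) and E3 above for 1380 (6.79%). Against the vehicle arrays, which both comparisons share, the same fit called 7852 genes with E2 (38.7%) and 8170 with E3 (40.2%). The mean of both oestrogens differed from vehicle for 9242 genes (45.5%), 3691 higher (18.2%) and 5551 lower (27.3%). That split depended on the scale: with each array centred on its median 5148 were higher and 3539 lower, and the median change of all genes moved from -0.15 to 0.05, so small falls from vehicle given here have a direction that rests on the scale.

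A p-value that misses the threshold does not show agreement, so the intervals were read directly. The 95% interval of the E2 minus E3 difference lay inside 2-fold either way for 16335 genes (80.4%), and the test of equivalence within 2-fold was passed by 17122 genes (84.3%). Inside 1.5-fold it was 51.6% of genes, inside 3-fold 93.4%, inside 4-fold 96.5% and inside 8-fold 98.9%, which leaves 710 genes for which a 4-fold difference is not excluded. The median gene had an interval of 0.42 log2 units either side of its difference, and the largest difference it allows was 1.49-fold. All these figures take the arrays of a group as independent, although replicates 2 and 3 of each oestrogen shared a slide. Slide entered as a random term left 15879 genes inside 2-fold and 16680 equivalent. Entered as a fixed term, with vehicle left out, it lowered these counts to 9762 and 9530. How large a difference is excluded thus depends on how slide is treated.

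Intervals were wider for the genes that responded most. Of the 3410 genes whose mean over both oestrogens lay 2-fold or more from vehicle (6.18% of all genes above it and 10.6% below), 68.0% had an interval inside 2-fold and 74.9% passed the equivalence test. Of 884 that changed by 4-fold or more, 47.4% were inside 2-fold and 88.9% inside 4-fold. Among the 70 genes that rose by 16-fold or more, 23 were inside 2-fold and 48 inside 4-fold, although the largest observed difference between the oestrogens in that class was 0.87 log2 units, under 2-fold. The spread in this fit is pooled over 5 groups, and for those 70 genes the median SD was 0.88 in the E3 24 h group against 0.31 in E2 2 h, 0.37 in E3 2 h and 0.41 in vehicle. With the vehicle and 2 h arrays alone, 44 of the 70 were inside 2-fold and 67 inside 4-fold. With the 6 arrays at 2 h alone these counts were 41 and 70.

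**Figure D2:**
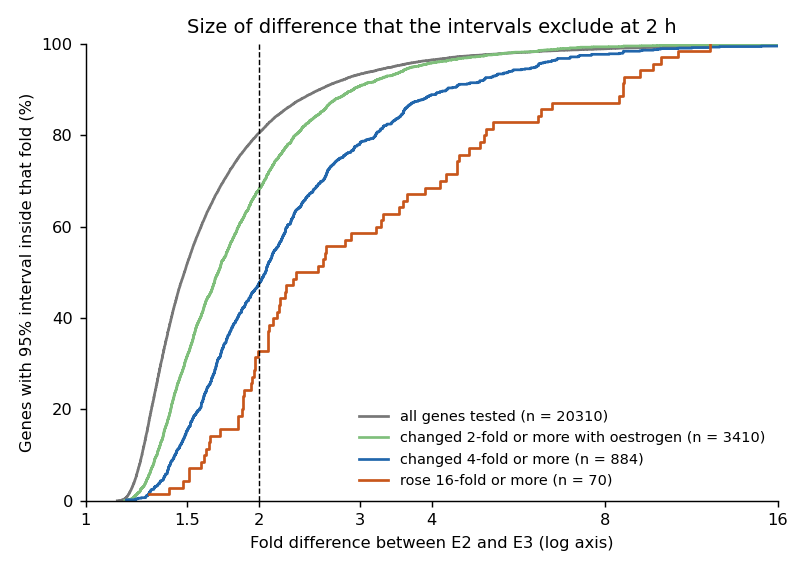
The horizontal axis is a fold difference between E2 and E3 at 2 h (log axis, shown up to 16-fold) and the vertical axis the percent of genes whose 95% interval, from all 15 arrays, lies inside it. The curve for all 20310 genes crosses the dashed 2-fold line at 80.4%, that for 884 genes changed 4-fold or more at 47.4% and that for 70 genes that rose 16-fold or more at 32.9%.

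The size of the whole response was also close. Each array's response level was its mean change from vehicle, in the direction of the response, over the 3410 genes changed by 2-fold or more. It was 1.55, 1.88 and 1.80 log2 units on E2 replicates 1 to 3 and 1.71, 1.81 and 1.87 on the E3 replicates. The groups overlapped, with means of 1.74 ± 0.17 (SD, n = 3) for E2 and 1.80 ± 0.0795 (SD, n = 3) for E3. Over the 1255 genes that rose the means were 1.95 with E2 and 1.92 with E3, and over the 2155 that fell 1.62 and 1.72. Without E2 replicate 1 the difference between the oestrogens turned from -0.05 to 0.06. With all arrays kept it was 0.0147 after quantile normalization and 0.0066 after normexp background correction.

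The 10 largest rises were chosen by the mean of both oestrogens, with every oestrogen array above every vehicle array. That both oestrogens raised them follows from this choice. Promoters are shown for Trim15, Gdf15 and Klk1, which are among the 10 largest, and for Greb1, a coactivator of the oestrogen receptor whose rise with oestrogen is well known. Each line holds the 250 bases before the most upstream start of the gene, 5′ to 3′ on the gene's strand, from RefSeq in the build GRCm38.p6, with capitals for matches to AGGTCA or its reverse complement TGACCT, the letters of 1 arm of an oestrogen response element.
Trim15: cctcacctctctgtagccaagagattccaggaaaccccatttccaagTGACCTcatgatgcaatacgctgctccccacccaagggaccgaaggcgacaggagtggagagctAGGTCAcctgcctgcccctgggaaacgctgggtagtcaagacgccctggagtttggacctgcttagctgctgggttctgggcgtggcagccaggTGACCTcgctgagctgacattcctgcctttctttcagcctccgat
Gdf15: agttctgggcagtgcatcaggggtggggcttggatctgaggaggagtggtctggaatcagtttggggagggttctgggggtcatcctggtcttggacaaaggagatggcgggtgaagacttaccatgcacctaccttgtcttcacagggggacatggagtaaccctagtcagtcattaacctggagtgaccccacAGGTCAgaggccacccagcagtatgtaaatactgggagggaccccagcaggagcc
Klk1: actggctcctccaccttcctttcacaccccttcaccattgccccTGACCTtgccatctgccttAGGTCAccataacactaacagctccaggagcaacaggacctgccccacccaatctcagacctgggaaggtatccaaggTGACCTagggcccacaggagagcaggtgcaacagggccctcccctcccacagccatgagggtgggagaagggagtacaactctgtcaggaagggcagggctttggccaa
Greb1: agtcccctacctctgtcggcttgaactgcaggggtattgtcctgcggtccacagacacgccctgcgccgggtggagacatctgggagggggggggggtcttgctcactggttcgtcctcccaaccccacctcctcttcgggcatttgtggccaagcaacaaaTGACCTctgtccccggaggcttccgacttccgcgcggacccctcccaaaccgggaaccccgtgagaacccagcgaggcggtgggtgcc
The windows are chr17:36867211-36867460 for Trim15 and chr8:70632457-70632706 for Gdf15, both on the minus strand, chr7:44225110-44225359 on the plus strand for Klk1, and chr12:16800887-16801136 on the minus strand for Greb1. These 4 windows were chosen after their matches were seen. Trim15 holds 3 matches, Klk1 holds 3, Gdf15 holds 1 and Greb1 holds 1. Over the same 250 bases of all 32851 RefSeq promoters of 27025 genes, searched on both strands, 14% hold AGGTCA or TGACCT. The share was 20.5% among 342 promoters of 256 genes that rose by 4-fold or more and 13.9% among 194 promoters of 168 genes that fell as much. The whole palindromic element, GGTCANNNTGACC with N for any base, was in 21 of all promoters (0.0639%), in 0 of those of the rising and 0 of those of the falling genes. TGACGTCA, the cAMP response element, was in 1.55% of all promoters, 4.97% of those of rising genes and 0% of those of falling genes. The AP-1 letters TGANTCA were in 6.75%, 4.97% and 6.7%. These matches describe letters near the starts only, are the same for both oestrogens, and say nothing of binding.

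Trim15, a member of the tripartite motif family, had the largest rise. Its probe (chr17:35012696-35012755, mm7) gave -0.71, 1.38 and 0.76 with E2 and 0.52, 0.64 and 1.19 with E3, against -7.78, -8.60 and -8.18 in vehicle, where it was not well above background on any array. The oestrogen groups overlapped, and the lowest of the 6 values was E2 replicate 1. Measured against the lowest signal that is well above background, Trim15 was at least 208-fold higher than vehicle for E2, at an adjusted p of 5.41e-05, and at least 257-fold higher for E3, at 4.08e-05. All lower bounds of this kind set the mean of the brighter group against, on each array of the dimmer group, the higher of that lowest signal and the probe's own. E2 minus E3 was -0.31 (95% interval -2.61 to 2.00), so a difference of up to 6.11-fold is not excluded by the fit to all arrays.

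Gdf15, a stress-induced ligand of the TGF-β superfamily, was the rise that separated the oestrogens most cleanly among the 10. Its probe (chr8:69084712-69084771, mm7) gave 4.70, 4.75 and 4.68 with E2 and 4.15, 4.23 and 4.44 with E3, against -2.74, -2.83 and -1.92 in vehicle. All 3 E2 arrays lay above all 3 E3 arrays, by an amount that is small beside the rise itself. The rise was 7.20 for E2, at an adjusted p of 3.76e-08, and 6.77 for E3, at 5.36e-08, and E2 minus E3 was 0.43 (95% interval -0.25 to 1.12, unadjusted p = 0.195), which did not pass the test.

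The Klk1 cluster, which encodes tissue kallikreins, serine proteases that release kinins, gave 5 of the 10 largest rises. Klk1 itself (probe at chr7:40402636-40402791, mm7) gave 1.68, 2.77 and 1.78 with E2 and 1.18, 2.04 and 1.84 with E3, against -4.54, -4.70 and -5.51 in vehicle. The oestrogen groups overlapped, and the rises were 6.99 for E2 and 6.60 for E3, at adjusted p of 0.00106 and 0.00152. Of 12 measured members of the family, 11 rose with the mean of both oestrogens (all genes, 18.2%). The rises were 7.26 for Klk1b24, 6.92 for Klk1b5, 6.50 for Klk1b4 and 6.25 for Klk1b3 at the top, and Klk1b9 (1.21, adjusted p = 0.0591) did not pass. E2 was the higher in 11 of the 12 (all genes, 49.3%), with a median difference of 0.46 log2 units (range -0.22 to 0.86). The groups did not overlap for 1 of the 12 (all genes, 12.7% in either direction). For Klk1, Klk1b24, Klk1b5, Klk1b4 and Klk1b3, E2 replicate 2 was the highest of the 6 oestrogen arrays and E3 replicate 1 the lowest. The lean to E2 in these 5 thus leans on single arrays. These genes are close copies of one another and their probes may share signal, so the 12 are not independent readings. The interval for Klk1 was -2.42 to 3.20 with all 15 arrays (SE 1.29) and -0.47 to 1.25 with the vehicle and 2 h arrays alone (SE 0.376), and a second Klk1 probe gave a difference of 0.40 beside 0.39. On that second probe the mean rise was 3.95, against 6.80 on the probe used.

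The hair-type keratins Krt86 and Krt87 and the water channel Aqp8 completed the 10. Krt86 was 2.32, 2.10 and 2.53 with E2 and 2.31, 2.49 and 2.50 with E3, against -4.70, -5.39 and -5.14 in vehicle. The 6 oestrogen values lay close to one another, while E2 minus E3 was -0.12 with an interval of -2.31 to 2.08 from all arrays and -0.55 to 0.31 from the vehicle and 2 h arrays. Krt87 gave a difference of -0.10, and near-identical keratin genes may share its signal. Aqp8, which passes water through epithelial membranes, was 1.21, 1.58 and 2.00 with E2 and 2.07, 1.82 and 2.12 with E3, against values from -4.72 to -4.43 in vehicle. The groups overlapped, and its difference was -0.40 (-2.30 to 1.499, or -0.86 to 0.06 without the 24 h arrays).

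The 10 largest falls were chosen likewise, with every oestrogen array below every vehicle array. Between the oestrogens their means differed by less than 2-fold, with 1 exception among 10. Hgf, the ligand of the receptor Met that mesenchymal cells make, was 0.12, 0.04 and 0.12 in vehicle, -3.52, -4.00 and -3.89 with E2 and -3.85, -3.31 and -3.99 with E3. These 2 groups overlapped, the falls were -3.89 and -3.81 (adjusted p = 2.30e-06 and 2.54e-06), and E2 minus E3 was -0.08 (-0.76 to 0.59). The size of the fall depended on the probe. Other Hgf probes, well above background on all 6 oestrogen arrays, gave mean changes of -0.71 and -0.92, and a dimmer one gave -2.62. E2 minus E3 on these was -0.10, -0.18 and -0.17. Bmf, a pro-apoptotic member of the BCL2 family, fell by 3.70 with E2 and 3.89 with E3, with a difference of 0.19 (-0.36 to 0.73). Its other probes gave mean changes of -1.19 and -3.59, with differences of 0.22 and 0.24. B130024G19Rik fell by 4.34 and 4.43, with a difference of 0.08 (-0.44 to 0.61). Msc, a transcriptional repressor of the bHLH class, fell by 4.15 and 3.47, with a difference of -0.68 (-1.59 to 0.23).

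Other falls went down to the limit of measurement with both oestrogens. Slc38a11, of a family of amino acid transporters, was at least 9.29-fold lower than vehicle with E2 and at least 9.08-fold lower with E3. For 6430590A10Rik these bounds were 7.77-fold and 7.60-fold, and for A630012P03Rik 5.64-fold and 5.52-fold. Hcar1, a lactate receptor, and Npy2r, a receptor of neuropeptide Y, fell by 3.84 and 3.92 after E2 and by 4.41 and 3.59 after E3, with 2 of 3 arrays of each oestrogen well above background.

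Zfp979, a zinc finger gene, was the exception, and its E3 arrays split. It was -0.51, -0.57 and -1.11 in vehicle, -7.82, -8.79 and -9.51 with E2, and -8.99, -1.49 and -1.75 with E3. E3 replicates 2 and 3 stayed near vehicle while replicate 1 lay with the E2 arrays, all 4 low values being not well above background. E2 was at least 109-fold below vehicle (adjusted p = 0.00653), while the fall with E3 (-3.35, adjusted p = 0.197) did not pass. E2 minus E3 was -4.63 (-8.90 to -0.36), unadjusted p = 0.0358, and did not pass after adjustment. Without E3 replicate 1 the difference was -7.09, and without E3 replicates 2 and 3 in turn it was -3.33 and -3.47. As the low values were not well above background, these sizes are not exact. By the lower bound used above, E2 was at least 10.7-fold below the mean of the split E3 arrays.

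The responses that were alike with the most precision were not the largest. Dennd2a, a Rab exchange factor, was 5.69, 5.85 and 5.63 with E2 and 5.67, 5.72 and 5.78 with E3, against 2.31, 2.20 and 2.42 in vehicle. The oestrogen values interleaved, both rises were 3.41, and E2 minus E3 was 0.00063 with an interval of -0.24 to 0.24, inside 1.18-fold (equivalence within 2-fold, adjusted p = 1.25e-05). Rap1gap2, an inhibitor of the small GTPase Rap1, rose by 2.03 and 2.00 with a difference of 0.03 (-0.17 to 0.24). Hey1, a Notch target, rose by 2.02 and 2.18 with a difference of -0.16 (-0.38 to 0.06), every E3 array lying above every E2 array. C730034F03Rik fell by 2.10 and 2.13 with a difference of 0.03 (-0.24 to 0.29). Gpr146 (0.30, 0.04 to 0.56) and Slc25a25, a mitochondrial carrier (-0.34, -0.60 to -0.08), were also held within narrow limits, with E2 above E3 on all arrays for the first and below on all for the second. The widest intervals among responders, beside Zfp979 and kallikreins, belonged to Myo15b (0.12, -3.18 to 3.42) and Fgf21, an endocrine growth factor (-0.50, -3.61 to 2.61). Both were not well above background on any vehicle array and well above it on all 6 oestrogen arrays.

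**Figure D3:**
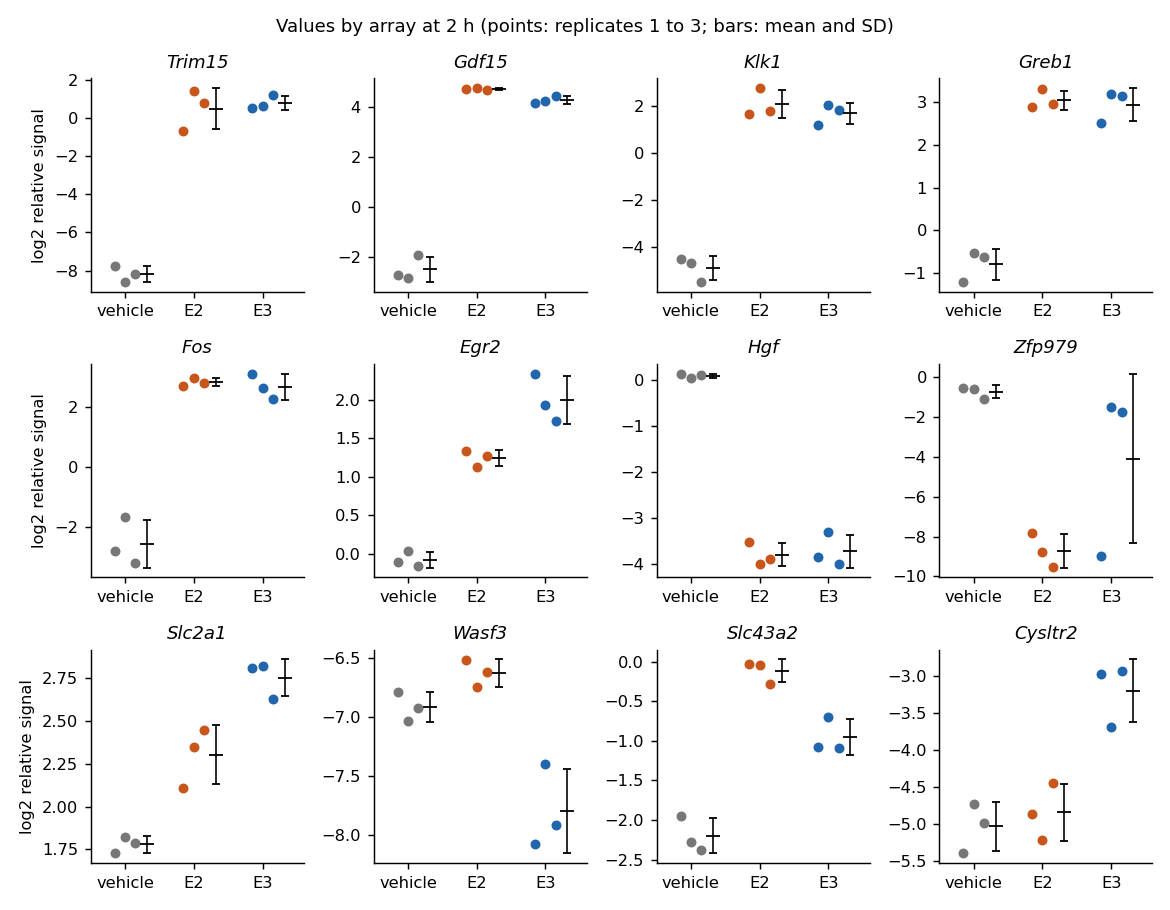
Log2 relative signal on each array of vehicle, E2 2 h and E3 2 h for 12 genes, with points for replicates 1 to 3 from left to right and bars for the mean and SD; each panel has its own vertical range. The oestrogen arrays overlap for Trim15, Klk1, Greb1, Fos and Hgf, separate for Gdf15, Egr2, Slc2a1, Wasf3, Slc43a2 and Cysltr2, and split within E3 for Zfp979.

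Immediate early genes, mostly transcription factors that are switched on within minutes to hours of a stimulus, rose with both oestrogens in 25 of 25 measured genes (the share of all genes that rose was 15.5% with E2 and 16.6% with E3). The list's median rise was 2.82 with E2 and 2.95 with E3, and 0 of 25 differed between them at an adjusted p under 0.05. Fos, the AP-1 subunit, was 2.69, 2.96 and 2.78 with E2 and 3.10, 2.63 and 2.24 with E3, against -2.80, -1.69 and -3.23 in vehicle. The groups overlapped and the difference was 0.15 (-0.75 to 1.05). Arc, a synaptic immediate early gene, rose by 6.17 and 6.16 (difference 0.02, -0.66 to 0.70), and Myc by 0.95 and 1.01 (difference -0.05, -0.64 to 0.54).

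Within this list E3 tended to the higher value. The median E2 minus E3 difference was -0.16 log2 units, against -0.00322 over all genes, and 18 of 25 were below 0. The list's mean level was 2.92 to 3.28 on the oestrogen arrays. In the brightest of 5 equal classes of genes by mean signal, the median level was 2.93. There the median difference was -0.08 and E2 was the higher in 25.8%, so most bright genes leaned to E3 as well. The list's median was negative under every scale tried, from -0.22 to -0.08. It was also negative with each 2 h array left out, from -0.23 to -0.09 (the latter without E2 replicate 1). For 4 of the 25 all E3 arrays lay above all E2 arrays, Egr2, Fosb, Fosl1 and Junb, and for 0 the reverse. Of all genes 12.7% were separated in either direction. In the brightest class all E3 arrays lay above for 583 of 4062 genes, and all E2 arrays for 82. Egr2, a zinc finger factor of the EGR family, was 1.33, 1.13 and 1.27 with E2 and 2.34, 1.94 and 1.73 with E3, against -0.12, 0.04 and -0.16 in vehicle. It rose by 1.32 with E2 and 2.09 with E3, and the difference was -0.76 (-1.28 to -0.25, unadjusted p = 0.00704), which did not pass after adjustment. Fosb, another AP-1 subunit, differed by -0.54 (-1.06 to -0.02) and Junb by -0.35 (-0.73 to 0.02). In all, 19 of 25 had an interval inside 2-fold and 25 of 25 inside 4-fold, the largest difference not excluded for any being 2.42-fold, for Egr2.

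**Figure D4:**
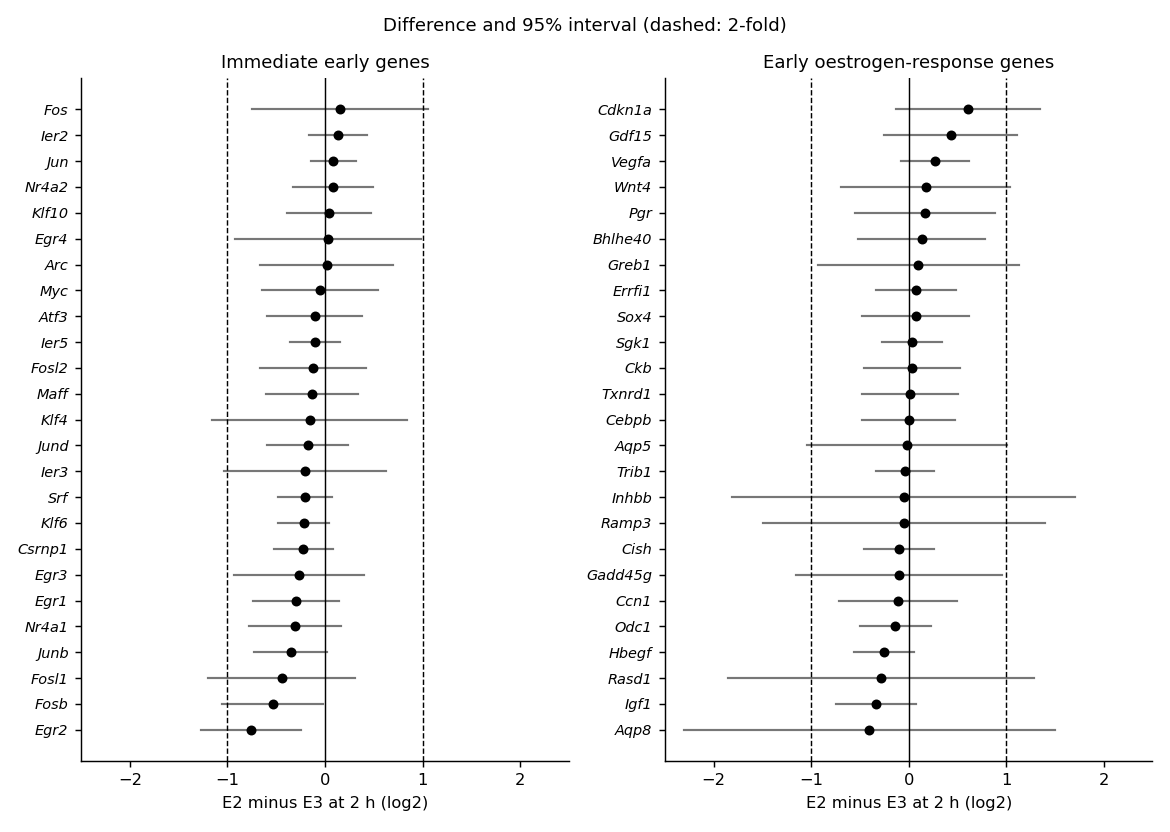
The E2 minus E3 difference at 2 h (log2, points) with its 95% interval (bars) for the 25 immediate early genes and the 25 early oestrogen-response genes, with dashed lines at 2-fold. In the left panel 18 of 25 points lie below 0, and in the right panel 12 of 25 do, with the widest bar for Aqp8.

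Early oestrogen-response genes known from the uterus were spread about 0. Of 25, 24 rose with each oestrogen (all genes, 15.5% with E2 and 16.6% with E3) and Sox4 fell with both, and 0 differed between them. The median difference was 0.00126, and its sign changed with the scale, from -0.06 to 0.08. Greb1 was 2.87, 3.29 and 2.95 with E2 and 2.49, 3.18 and 3.13 with E3, against -1.20, -0.54 and -0.62 in vehicle. The groups overlapped, with a difference of 0.10 (-0.93 to 1.13). Pgr, the progesterone receptor, rose by 1.99 and 1.82 (difference 0.17, -0.55 to 0.89). Igf1, the growth factor through which stroma signals to epithelium, rose by 1.13 and 1.47 (difference -0.34, -0.75 to 0.07). Inhbb, the activin βB subunit, was 6.65, 6.54 and 6.69 with E2 and 6.62, 6.67 and 6.74 with E3, from values between 0.69 and 1.63 in vehicle. Cdkn1a, the cell cycle inhibitor p21, had the largest difference of the list, 0.61 (-0.13 to 1.34), with E3 replicate 1 at 1.12 and the other 5 oestrogen arrays between 2.11 and 2.64. Of the 25, 15 had an interval inside 2-fold and 24 inside 4-fold, Aqp8 being the one outside.

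The receptors and their coregulators differed little. Esr1, which encodes ERα, was 2.67, 2.78 and 2.77 with E2 and 2.31, 2.58 and 2.73 with E3, against 2.83, 2.92 and 2.86 in vehicle, a difference of 0.20 (-0.03 to 0.44). Nrip1, a corepressor that oestrogen induces, rose by 2.65 and 2.47 (difference 0.17, -0.27 to 0.62), and Gper1, a membrane oestrogen receptor, fell by 2.14 and 2.00 (difference -0.15, -0.78 to 0.49). Med1, the Mediator subunit that contacts nuclear receptors, was 2.50, 2.65 and 2.59 with E2 and 1.90, 1.08 and 2.26 with E3, against 1.58, 1.60 and 2.19 in vehicle. All E2 arrays lay above all E3 arrays, and the difference of 0.83 (0.24 to 1.43, unadjusted p = 0.0103) did not pass after adjustment. In this list 13 of 14 intervals were inside 2-fold. Of 12 measured oestrogen-metabolising enzymes, 11 were inside 2-fold, and Hsd17b1 (falls of 1.64 and 1.77) and Cyp1b1 (falls of 2.67 and 3.37) had differences of 0.13 (-0.18 to 0.45) and 0.70 (-0.47 to 1.86).

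Signalling ligands and feedback genes matched as closely. All 21 measured growth factor ligands and receptors and all 14 MAP kinase phosphatase and Sprouty genes had intervals inside 2-fold. Hbegf, a ligand of the EGF receptor, rose by 2.95 and 3.21, with every E3 array above every E2 array and a difference of -0.26 (-0.56 to 0.05). Dusp1, which inactivates MAP kinases, rose by 2.84 and 2.90 with a difference of -0.06 (-0.36 to 0.24). Of 23 Wnt genes, 17 were higher with E2, the median difference was 0.17 (0.12 to 0.19 over the scales tried), and in 5 all E2 arrays lay above all E3 arrays, beside 5.91% of all genes. Without E3 replicate 3 the median was 0.09. Wnt5a, a stromal Wnt ligand, was -2.72, -3.29 and -2.64 with E2 and -3.66, -3.64 and -3.40 with E3, against values from -3.03 to -2.74 in vehicle, so E3 was the lower. The difference was 0.69 (0.24 to 1.13, unadjusted p = 0.00561), again not past the adjusted threshold. Wnt4, which rises early in the uterus with oestrogen, rose by 3.27 and 3.09 (difference 0.17, -0.69 to 1.04), and the Wnt receptor gene Fzd1 fell by 2.64 and 2.66 (difference 0.02, -0.25 to 0.29).

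Of 15 measured growth arrest genes and G1 cyclins 6 rose with each oestrogen, and 2 fell with E2 and 5 with E3 (all genes, 15.5% and 16.6% rose, and 23.1% and 23.6% fell). In 8 of the 15 both oestrogens gave a call in the same direction, and the others were called with E3 alone or with neither. Gadd45g, a stress sensor of the GADD45 family, was 7.80, 7.73 and 7.85 with E2 and 7.83, 7.80 and 8.05 with E3, against 2.96, 3.09 and 3.51 in vehicle. The oestrogen groups overlapped, with a difference of -0.10 (-1.16 to 0.95). Btg2, an antiproliferative gene, rose by 1.99 and 2.17 (difference -0.19, -0.49 to 0.12), and its relative Btg1 fell by 1.16 and 1.08 (difference -0.08, -0.36 to 0.20). In this list 11 of 15 intervals were inside 2-fold. In the list of BMP, activin and Id genes 13 of 18 were inside 2-fold. Smad6, an inhibitory SMAD, was 0.18, 0.14 and -0.05 with E2 and -0.38, -0.27 and -0.79 with E3, against -0.61, -0.60 and -0.81 in vehicle. E2 lay above both other groups, and the difference was 0.57 (0.21 to 0.94), not past the adjusted threshold. Id1 rose by 1.18 and 1.33 (difference -0.16, -0.46 to 0.15) and Id2 fell by 1.60 and 1.73 (difference 0.13, -0.37 to 0.63), both being inhibitors of bHLH factors.

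Vascular permeability and fluid transport lie behind the early swelling of the uterus. Of 15 vascular genes E2 gave 5 rises and 2 falls, and E3 gave 6 and 4. Of all genes 15.5% rose and 23.1% fell with E2, and 16.6% and 23.6% with E3, shares that apply to the transport list below as well. Vegfa, the permeability and vessel growth factor, was 4.27, 4.52 and 4.35 with E2 and 3.92, 4.35 and 4.06 with E3, against 1.93, 1.61 and 1.61 in vehicle. The oestrogen groups overlapped, with a difference of 0.27 (-0.08 to 0.61). Pgf, a relative of Vegfa, rose by 4.73 and 4.57 (difference 0.17, -0.35 to 0.68), and Adm, a vasodilator, by 1.63 and 1.73 (difference -0.10, -0.49 to 0.28). The vascular list had 11 of 15 intervals inside 2-fold. Among 16 water channel and ion transport genes 7 rose with each oestrogen, 3 fell with E2 and 4 with E3, and 9 intervals were inside 2-fold. Scnn1a, a subunit of the epithelial sodium channel, rose by 1.46 with each (difference -0.00383, -0.36 to 0.35), and Aqp5 by 3.68 and 3.70 (difference -0.01, -1.04 to 1.01).

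Genes of protein synthesis and metabolism were compared next. Against 15.5% of all genes that rose with E2 and 16.6% with E3, in each oestrogen 22 of 28 ribosome biogenesis genes rose, 27 of the 28 intervals were inside 2-fold, and the median difference was -0.01. Of 20 ER folding genes 14 rose with each, with 19 intervals inside 2-fold. Of 19 genes of amino acid transport and the integrated stress response 11 rose with each and 17 were inside 2-fold, with E3 above E2 on all arrays for 4 (Slc3a2, Asns, Psph and Atf5), beside 6.79% of all genes. Their median difference of -0.14 became 0.01 without E2 replicate 1 and -0.02 without E3 replicate 3. Atf4, the central factor of that response, rose by 2.18 and 2.32 (difference -0.14, -0.52 to 0.23). Among 18 glucose uptake and glycolysis genes, E2 gave 7 rises and 2 falls and E3 gave 8 and 1 (all genes, 23.1% and 23.6% fell). Of the 18, 16 were lower with E2 than with E3. The median difference was -0.18 (-0.24 to -0.12 over the scales tried, and -0.11 without E3 replicate 3), and for 6 of 18 all E3 arrays lay above all E2 arrays (Slc2a1, Pfkl, Aldoa, Gapdh, Pgk1 and Ldha), beside 6.79% of all genes, with the reverse for Pfkp. Slc2a1, the glucose transporter GLUT1, was 2.11, 2.35 and 2.45 with E2 and 2.80, 2.82 and 2.63 with E3, against 1.73, 1.82 and 1.79 in vehicle. Both groups were above vehicle and separate from each other, and the difference was -0.45 (-0.79 to -0.11, unadjusted p = 0.0139). Ldha, lactate dehydrogenase A, differed by -0.34 (-0.66 to -0.02) and Aldoa, an aldolase, by -0.32 (-0.61 to -0.03). None of the 18 passed after adjustment (smallest adjusted p = 0.9999), and 17 of 18 intervals were inside 2-fold, so the lean is one of small size. These are strongly expressed genes, and E3 was the higher in most genes of high signal, as described further on. In the brightest class described there, all E3 arrays lay above all E2 arrays for 583 of 4062 genes, and the median difference was -0.08.

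Sterol genes had a median difference of -0.10 over 22 genes and 21 intervals inside 2-fold. The sign of that median was not stable, at 0.05 without E2 replicate 1, -0.26 without E2 replicate 2, and 0.03 on the arrays of scan day 1. All 24 S phase and mitotic genes had intervals inside 2-fold, 0 of them differing after adjustment. Of the 24, 19 were higher and 5 lower with E2, with a median difference of 0.10 (0.04 to 0.12 over the scales tried). Rrm2, a subunit of ribonucleotide reductase, was -1.34, -0.99 and -1.26 with E2 and -1.97, -1.76 and -1.58 with E3, against -2.72, -2.52 and -2.60 in vehicle. All E2 arrays lay above all E3 arrays and both groups above vehicle, and Rrm2 is among the 8 genes with the smallest unadjusted p that were higher with E2, with a difference of 0.57 (0.28 to 0.87). Mad2l1, a spindle checkpoint gene, rose by 4.39 and 4.25 (difference 0.14, -0.39 to 0.67).

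Immune genes were compared with less precision. Of 23 interferon-response genes 14 fell with E2 and 15 with E3 (all genes, 23.1% and 23.6%), 13 had an interval inside 2-fold, and Rsad2, an antiviral enzyme, fell by 2.63 and 3.14 with a difference of 0.52 (-0.11 to 1.14). In this list 17 were higher and 6 lower with E2, with a median difference of 0.14 (0.08 to 0.17 over the scales tried). Of 20 chemokines and cytokines only 6 had an interval inside 2-fold. The list's median difference was 0.09, with 12 of 20 higher with E2, and it turned to -0.21 without E2 replicate 1. All E3 arrays lay above all E2 arrays for 4 of the 20 (Ccl2, Ccl7, Ccl12 and Il6, beside 6.79% of all genes), and these 4 rose with both oestrogens. Ccl7 was -1.36, -1.48 and -0.88 with E2 and -0.43, -0.76 and -0.86 with E3, against values from -3.48 to -2.77 in vehicle. The E3 arrays lay just above the highest E2 array, with a difference of -0.55 (-1.04 to -0.07). Ccl12 differed by -0.49 (-0.92 to -0.06), Ccl2 by -0.56 (-1.14 to 0.02) and the neutrophil chemoattractant Cxcl1 by -0.95 (-1.82 to -0.09), and none passed after adjustment. Socs3, a feedback inhibitor of cytokine signalling, rose by 4.06 and 3.83 (difference 0.23, -0.05 to 0.51).

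The genes with the smallest unadjusted p for E2 minus E3 and no overlap of the groups are given as a description, since this contrast chose them. Genes with larger but less precise differences are not among them. Highest with E2 relative to E3 by unadjusted p was Wasf3, an actin regulator, at -6.51, -6.74 and -6.62 with E2 and -8.08, -7.40 and -7.92 with E3, against -6.79, -7.03 and -6.93 in vehicle. E2 lay at vehicle level and E3 below it, a difference of 1.17, with 1 of 3 E3 arrays well above background. BC030500 was lower than vehicle with both oestrogens and lower with E3 than with E2, a difference of 1.92. None of its E3 arrays and 2 of its 3 E2 arrays were well above background, so that E2 was at least 1.55-fold above E3. Stk32a, a kinase gene, differed by 1.39 (at least 1.40-fold) on this probe, and the 3 other probes of the gene were not well above background on any of the 6 arrays. Better measured was Slc43a2, a transporter of large neutral amino acids, at -0.03, -0.04 and -0.29 with E2 and -1.08, -0.70 and -1.10 with E3, against -1.95, -2.27 and -2.37 in vehicle. Both oestrogens raised it and E2 by more, with a difference of 0.84, while a second probe gave 0.23.

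Foxo3, a forkhead factor, fell less with E2, at -4.29, -4.18 and -4.36 against -5.00, -4.76 and -4.92 with E3 and -2.91, -3.04 and -3.02 in vehicle. The difference was 0.62 on this probe and 0.58 on another, although the second probe rose against vehicle. Kbtbd11 differed by 0.67, with -0.21 and 0.45 on its other probes, and Ovgp1, the oviduct glycoprotein, by 1.05 and 1.04 on its pair of probes. Ovgp1 was -1.83, -1.10 and -1.34 with E2 and -2.97, -2.21 and -2.24 with E3, with vehicle between -1.49 and -1.37, so E2 lay around vehicle and E3 below it.

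On the other side, Cysltr2, a receptor of cysteinyl leukotrienes, was -4.87, -5.23 and -4.45 with E2 and -2.97, -3.68 and -2.93 with E3, against -5.40, -4.73 and -4.99 in vehicle. E2 overlapped vehicle and E3 lay above both, a difference of -1.65 (3.15-fold). Dnajb1, a heat shock cochaperone, was 4.77, 4.95 and 4.94 with E2 and 5.29, 5.42 and 5.28 with E3, against values from 3.70 to 3.90 in vehicle. It rose with both, and its difference was -0.44 on one probe and -0.45 on another. Sertad3 (-0.57), 9130008F23Rik (-0.78), Tnfaip6, a hyaluronan-binding protein of inflammation and ovulation (-0.67), and the pattern receptor Tlr1 (-0.71) were also higher with E3 on every array. Pign, of GPI anchor synthesis, differed by -0.52 on the probe used and by -0.15 and, on a probe well above background on 1 of 6 arrays, 0.55 on others. Adgb differed by -1.95, with E2 not well above background (at least 1.56-fold). The smallest adjusted p of all these was 0.405, for Wasf3 and BC030500.

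Differences over 2-fold were few and mostly dim. There were 238, 156 with E2 higher and 82 with E3 higher, 148 of them in the dimmest of 5 equal classes of genes by mean signal and 2 in the brightest. After a background correction that damps dim probes (normexp) there were 45, 17 with E2 higher and 28 with E3 higher, 4 of them in the dimmest class. Detection told the same: 19109 genes were well above background on all 6 arrays, 26 on all E2 and no E3 array, and 2 on all E3 and no E2 array.

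The direction of small differences followed signal. In the dimmest class, of 4062 genes, E2 was the higher in 72.4%, with a median difference of 0.19, and in the brightest class in 25.8%, with a median of -0.08. E2 replicate 1 carried much of the first part. In the dimmest class its median deviation from the mean of the 6 arrays was 0.343, the other E2 arrays stood at -0.0216 and -0.0163, and the E3 arrays between -0.0884 and -0.0707. Without it the shares were 58.5% and 30.7%. With quantile normalization they were 51.7% and 46.4%, and with normexp 30.8% and 28.5%. In the brightest class all 3 E3 deviations were above 0 (0.00825 to 0.0875) and all 3 E2 deviations below (-0.0431 to -0.0226). The part of this in the lean of glycolysis and immediate early genes to E3 was not tested beyond the scales given for them, under which both kept their sign.

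**Figure D5:**
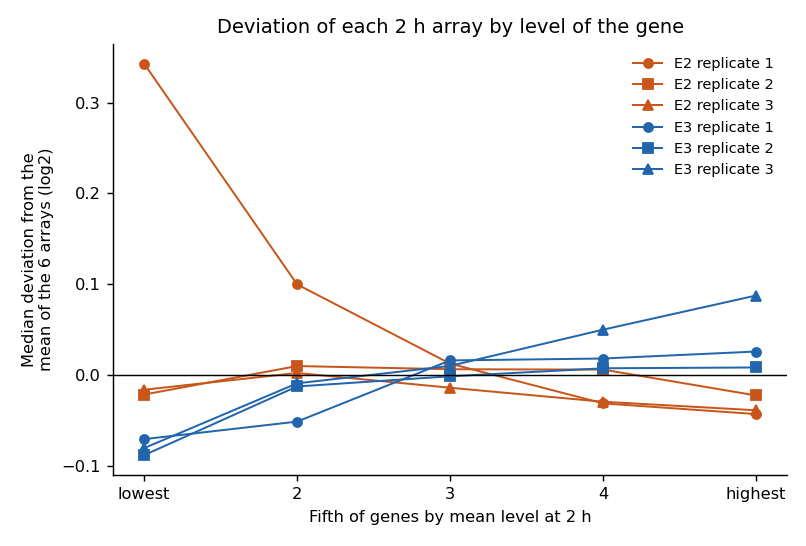
Genes were divided into 5 equal classes by their mean log2 relative signal at 2 h (horizontal axis), and each line gives 1 array's median deviation from the mean of the 6 arrays (vertical axis, log2). E2 replicate 1 stands at 0.343 in the dimmest class, apart from the other 5 arrays.

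Markers of other cells that a whole uterus holds were compared too. Erythrocyte markers were higher with E2 in 5 of 5 measured of 12 listed (7 did not pass the filter or were not on the array), with no overlap for 4 (all genes, 5.91% with E2 above), and a median difference of 0.36. With normexp 4 of the 5 were higher with E2. Their mean level was 0.07 to 0.29 on the E2 arrays, -0.36 to 0.01 on the E3 arrays and -1.34 to -0.72 in vehicle. Hba-a1, an α-globin, was 5.05, 5.08 and 5.33 with E2 and 4.76, 4.90 and 4.39 with E3, against 3.75, 4.21 and 3.48 in vehicle, a difference of 0.47 (-0.09 to 1.03). It rose with both oestrogens, by 1.34 and 0.87. The part of blood content in other differences was not tested.

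Of the 16 listed markers of eosinophils and mast cells 11 were measured, and 9 of the 11 were higher with E2, with a median difference of 0.68 (0.43 to 0.68 over the scales tried), but 1 interval of 11 was inside 2-fold. The median was 0.34 without E3 replicate 3 and 0.92 without E3 replicate 1. Tpsb2, a tryptase of mast cells, had the largest difference, at -2.68, -2.56 and -2.94 with E2 and -3.29, -3.20 and -4.81 with E3, against -1.47, -1.59 and -2.90 in vehicle. E2 lay above E3 throughout, with a difference of 1.04 (-0.24 to 2.32). Ear6, an eosinophil ribonuclease, differed by 1.03 (-0.52 to 2.57) and Fcer1a, a chain of the IgE receptor, by 0.92 (0.09 to 1.74). The mean of the list was -2.03 to -1.76 on E2 arrays, -2.88 to -2.05 on E3 arrays and -1.97 to -1.38 in vehicle, and the eosinophil genes Epx and Il5ra were among 5 not tested. Adipocyte markers varied within each group, as with Adipoq at 3.13, 0.82 and 2.87 with E2 and 2.31, 3.14 and 0.02 with E3, and only 4 of 14 intervals were inside 2-fold. Neutrophil markers did so more, with 1 of 11 inside 2-fold. For macrophage, lymphocyte and mesothelial markers 11 of 13, 8 of 17 and 8 of 8 were inside 2-fold, with median differences of -0.05, 0.08 and -0.06. The medians of epithelial, stromal, myometrial and endothelial markers were -0.09, 0.09, -0.16 and -0.02. In the same order, 7 of 13, 10 of 12, 12 of 12 and 11 of 12 intervals were inside 2-fold. E3 was the higher in 10 of 13 epithelial, 5 of 12 stromal, 9 of 12 myometrial and 7 of 12 endothelial markers. The myometrial median (-0.21 to -0.10 over the scales tried) was as far below 0 as that of the immediate early genes.

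At 24 h, on other arrays, the oestrogens differed for 3197 genes (15.7%). Of these, 2932 had a 2 h interval inside 2-fold (91.7%), 0 were called at 2 h, and 1213 passed the test of the change between the times. Over all genes 80.4% had a 2 h interval inside 2-fold. The fit uses 1 spread per gene for both times, so a call at 24 h favours genes with narrow 2 h intervals. The 91.7% is therefore not separate evidence of agreement at 2 h. The change of the E2 minus E3 difference from 2 h to 24 h passed its own test for 1264 genes (6.22%), 781 upward (3.85%) and 483 downward (2.38%), or 1090 and 332 with the array median as the scale. With slide as a fixed block the count was 0, and with scan day as a block 189. It was 546, 725 and 620 without E2 2 h replicates 1, 2 and 3, 764 and 432 without E3 2 h replicates 2 and 3, 577 and 607 without E2 24 h replicates 1 and 2, and 2217 and 775 without E3 24 h replicates 2 and 3. Rrm2 differed by 1.63 at 24 h and 0.57 at 2 h, a change of 1.06 (SE 0.19, adjusted p = 0.0106), and Foxo3 by -0.66 and 0.62, a change of -1.28 (SE 0.198, adjusted p = 0.00535).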

How the data were processed

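Per the file headers, the deposited intensity values are processed signals of Feature Extraction 9.5.3.1 (9.5 per the submitters' processing notes), background-subtracted, detrended within the array and not normalized between arrays. Probe positions are in mm7 per the file headers. Flagged outlier spots were left out, repeats of a probe averaged, and probes named through a RefSeq table of GRCm38.p6. Each array's log2 signal over non-control probes was reduced by its 75th percentile. A gene's probe with the highest mean stood for it, and it was tested if well above background on all 3 arrays of a group. In limma 3.58.1 (R 4.3.3), all 15 arrays entered 1 model with a mean for each group, with moderated variances, Benjamini-Hochberg adjustment and 95% intervals. Equivalence was the larger of the one-sided p-values against 2-fold either way. The pipeline was tested on simulated data. Arrays give no counts, and their number limits the precision.

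The genes named were the 10 largest rises and falls with the mean of both oestrogens, and the 8 smallest unadjusted p on each side of E2 minus E3. Also named were the 6 narrowest and widest intervals among genes changed 4-fold or more, and members of lists. The rises and falls were called, with all oestrogen arrays beyond all vehicle arrays. A rise had to be well above background on all arrays of both oestrogens, and a fall on all vehicle arrays. Members, lists and tests were chosen with earlier results of these data known, so no list is independent evidence. Same-numbered E2 and E3 arrays did not deviate together (correlations 0.138, -0.0409 and -0.0424), so numbers were not taken as pairs. Alternatives were other scales (array median, quantile, normexp with an offset of 50), filters, probes, thresholds, sets of arrays, variance models, blocks for replicate, slide and scan day, and each array left out. List medians, signal classes, interval classes and counts over 2-fold under these settings were added after seeing the data.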

Additional observations from a re-analysis of the deposited data

Results flagged for a closer look

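The difference between E2 and E3 changed from 2 h to 24 h for 1264 genes, by the test of the change itself (limma, adjusted p under 0.05). With slide as a fixed block 0 genes passed, the genes named here included, and with scan day as a block 189 did. Among the genes named for 2 h, 10 passed it, and the change, 24 h minus 2 h, is given on the log2 scale. For Slc43a2 it was -1.98, from 0.84 at 2 h to -1.14 at 24 h (adjusted p = 0.00148). For Foxo3 it was -1.28, from 0.62 to -0.66 (adjusted p = 0.00535). For Kbtbd11 it was -1.32, from 0.67 to -0.65 (adjusted p = 0.0119). Gpr146 moved by -0.895, from 0.30 to -0.60 (adjusted p = 0.0129), and C730034F03Rik by -0.64, from 0.03 to -0.61 (adjusted p = 0.0482). The opposite way, Rrm2 moved by 1.06 (0.57 to 1.63, adjusted p = 0.0106), Sertad3 by 0.84 (-0.57 to 0.27, adjusted p = 0.0267), Slc25a25 by 0.823 (-0.34 to 0.49, adjusted p = 0.0192), Pign by 0.792 (-0.52 to 0.27, adjusted p = 0.035) and Dnajb1 by 0.68 (-0.44 to 0.24, adjusted p = 0.0387). In 9 of the 10, Rrm2 being the exception, the difference had opposite signs at the 2 times. Most of these genes were named for their 2 h difference, so that part of the pattern follows from the choice of genes. The cause was not tested.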

How the results depend on the processing

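The 0 genes called between E2 and E3 became 1 in 2 alternatives: Best1 with the 6 arrays at 2 h only (difference 3.84, adjusted p = 0.00162) and Tescl without E2 replicate 2 (-4.73, adjusted p = 0.000444), so leaving out an array gave 0 to 1. In every other alternative run it stayed 0, array weights coming nearest (2191 at an unadjusted p under 0.05, smallest adjusted p 0.058). Genes with an interval inside 2-fold numbered 15039 to 15635 with an array left out, 25085 with every probe on its own (more tests) and 9762 with slide as a fixed block over treated arrays. Genes equivalent within 2-fold numbered 15826 to 16493, 26355 and 9530 in the same order. Genes called against vehicle numbered 6042 to 7539 for E2, 6595 to 7468 for E3 and 7597 to 9322 for their mean with an array left out. At an adjusted p under 0.01 they were 5220 for E2 and 5387 for E3, and with array weights 12803 for E2. The 1264 changes between times became 574 with no filter on dim probes, 208 at 0.01, 2838 with array weights, 701 and 0 with slide as a random and a fixed block (2176 at an unadjusted p under 0.05), 189 when scan day was a term, 610 on the arrays of scan day 1, and 432 to 2217 with an array left out. The distance difference ran from -0.0158 to 0.00665 and the response difference from -0.11 to 0.0601. The replicate block, as a check of pairing, gave 0 calls between E2 and E3, 16344 intervals inside 2-fold, 17179 equivalent and 887 changes between times. Against vehicle it gave 7523 calls for E2, 7856 for E3 and 8960 for their mean, and it moved no count by over 1.5 times. The causes were not tested. Limits: 3 arrays a group, E2 and E3 on separate slides at 2 h, dim probes with wide intervals, and a spread that the E3 24 h arrays widen.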
